A study of Mus musculus with 8 samples.

Results

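The genes described here prepare and load the peptides that MHC class I molecules carry to the cell surface. They were taken by name from the deposited table, and all 10 (Tap1, Tap2, Tapbp, Psmb8, Psmb9, Psmb10, Psme1, Psme2, B2m and Nlrc5) were present, on 11 of its 11996 rows, because Psmb9 stands on 2 rows. RNA was sequenced from thioglycolate-elicited peritoneal macrophages of C57BL/6 mice in 4 groups: Ptpn1-/- cells given IL-10 at 100 ng/ml for 4 h, Ptpn1-/- cells mock treated, wild-type cells given IL-10 in the same way, and wild-type cells mock treated. Cells of all groups had first adhered to plastic for 24 h. The labels list 2 samples in each group, whereas the table used here holds 1 value per gene and group. Ptpn1 encodes PTP1B, a tyrosine phosphatase that acts on cytokine receptor signalling, and the labels say no more of the deleted allele, nor of the age of the mice.

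In cells that present antigen, proteasomes cut cytosolic proteins into peptides, the TAP transporter carries these into the endoplasmic reticulum, and the loading complex fits them onto a class I heavy chain paired with beta-2 microglobulin. Interferons are known to switch on an alternative set of catalytic proteasome subunits, called the immunoproteasome, together with the PA28 activator, TAP and the transactivator NLRC5. The cytokine IL-10 restrains inflammatory gene expression in macrophages, through the kinases JAK1 and TYK2 and the factor STAT3.

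Values are the authors' signal per group, in units of which 26.7 make 1 ppm of a column's total. Differences are log2 ratios of signal, with 26.7 units added to both sides, which understates the ratios of low genes. The error between replicates is unknown for every value, since no value per sample was used. No p-value was computed, and depth is unknown. Genes past a limit of 2-fold or 1.5-fold are therefore counted beside the share of all 11400 genes kept after a filter on low signal. All 10 genes passed that filter, on all 11 rows. Counts and medians over the 10 genes take Psmb9 from its row of higher signal, and the second row is given separately.

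In these 4 columns the set was listed highest in Ptpn1-/- cells given IL-10, with B2m equal there to its mock value. With Psmb9 taken from its row of higher signal, the widest contrasts were in Nlrc5, which was higher with IL-10 in both genotypes, and in Tap1, which was higher in the knockout, more so with IL-10. Tapbp and B2m stood apart from these, with log2 ratios of at most 0.20 in every comparison.

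Several of the genes lie side by side. The rows of Psmb9, Tap1, Psmb8 and Tap2 lie within 27185 bases of the MHC region, between 34318981 and 34346165 on mm9 chromosome 17. The row of Tapbp lies on the same chromosome from 34057473 to 34063142. Within the 27185 bases the row of Tap1 (ENSMUSG00000037321) runs from 34324747 to 34334164, that of Psmb8 (ENSMUSG00000024338) from 34334735 to 34338399 and that of Tap2 (ENSMUSG00000024339) from 34344651 to 34346165. Psmb9 and Tap1 are read in opposite directions from starts 464 bases apart in the table. Psme1 and Psme2 lie within 12965 bases of chromosome 14 (56196960 to 56209924). Psmb10 (108459628 to 108462292) and Nlrc5 (97048967 to 97051168) are on chromosome 8, and B2m (121973422 to 121978819) is on chromosome 2. The row of Nlrc5 spans 2202 bases, whereas RefSeq gives the gene 92938 bases on GRCm38, and that of Tap2 spans 1515 against 11843. Tapbp (5670 against 9813) and the main Psmb9 row (3309 against 5301) also fall short. The coordinates therefore need not cover the whole gene.

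RefSeq promoter windows on GRCm38.p6 were matched for 8 of the 10 genes, and the 250 bases before the annotated start were searched on both strands. Tap2 and Nlrc5 had no window and were not searched. The letters searched were GAAA repeated after any 2 bases, a form of the interferon-stimulated response element, TTCNNNGAA, the palindrome that STAT dimers bind, and CCAAT. Of 32851 mouse windows of this length, 2.98% held the first, 7.02% the second and 33.8% the third. Tap1, Psmb8 and B2m are shown because they carry the contrast between a gene with a wide genotype difference, a catalytic subunit and a gene that hardly differed. Capitals mark matches to any of the 3 motifs. The windows are chr17:34187306-34187555 (plus strand) for Tap1, chr17:34197945-34198194 (plus strand) for Psmb8 and chr2:122147437-122147686 (plus strand) for B2m.
Tap1: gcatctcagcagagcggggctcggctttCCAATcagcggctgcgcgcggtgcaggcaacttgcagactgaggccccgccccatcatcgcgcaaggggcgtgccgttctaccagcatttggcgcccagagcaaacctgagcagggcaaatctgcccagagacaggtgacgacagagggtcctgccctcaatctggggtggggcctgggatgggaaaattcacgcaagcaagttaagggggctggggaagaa
Psmb8: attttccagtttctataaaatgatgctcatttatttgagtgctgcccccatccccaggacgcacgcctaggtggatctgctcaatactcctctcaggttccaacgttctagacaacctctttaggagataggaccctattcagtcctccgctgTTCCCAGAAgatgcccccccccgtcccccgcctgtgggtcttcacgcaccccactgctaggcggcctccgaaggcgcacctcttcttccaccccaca
B2m: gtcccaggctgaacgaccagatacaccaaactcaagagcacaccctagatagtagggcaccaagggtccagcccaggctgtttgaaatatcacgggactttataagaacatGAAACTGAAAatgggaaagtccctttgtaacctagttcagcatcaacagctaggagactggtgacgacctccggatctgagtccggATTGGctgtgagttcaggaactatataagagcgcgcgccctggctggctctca
The match to the repeated GAAA in B2m lies 139 to 130 bases before the start, and the TTCNNNGAA match in Psmb8 lies 97 to 89 bases before it. No other window of the 8 matched genes held either motif. The RefSeq starts of Psmb9 and Tap1 lie 226 bases apart, so most of the printed Tap1 window is also the upstream side of Psmb9. CCAAT or its reverse complement ATTGG was found in the windows of Tap1, Psmb9, B2m and Tapbp. The windows of Tap1 and Psmb9 overlap, and the match 222 to 218 bases before Tap1 is the same site as that 8 to 4 bases before Psmb9. A match describes these letters only, and bears on no factor's binding.

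Ptpn1 itself, the targeted gene, was listed at 5391.5 units in knockout and 6736 in wild type with IL-10, and at 3836.5 in knockout and 4960.5 in wild type under mock treatment. The knockout was lower in both treatments (log2 ratios of -0.32 with IL-10 and -0.37 under mock). Most of the signal was present there, and since the labels do not say which part of the gene was deleted, it checks them only weakly. Of 9 macrophage markers all were listed, and no listed marker of any cell type stood at 0. They did not differ one way between genotypes: the median log2 ratio over the 9 was -0.05 with IL-10 and 0.06 under mock, Lyz2 being lowest and Fcgr1 highest (log2 ratios of 0.61 with IL-10 and 0.79 under mock). Lyz2 was listed at 136852 units with IL-10 and 136852 under mock in the knockout, against 272813 with IL-10 and 362618 under mock in wild type. Cd68 stood at 0.27 under both treatments. The summed signal of the 9 was 475438 units with IL-10 and 471261 under mock in the knockout, against 564835 with IL-10 and 654841 under mock in wild type. Most of each sum is Lyz2 and Cd68, which went opposite ways. Cd68 was at 272612 units in both knockout columns and 226524 in both wild-type columns. Such equal values, on a scale that the columns share, need not mean equal expression. The wild-type mock value of Lyz2 is the highest value that all columns share. The sums therefore do not stand for the 9 markers as a set. Of the 7 monocyte markers 6 were higher in the mock-treated knockout (F13a1 by only 0.007) and 5 in the knockout with IL-10. Of kept genes 53.5% and 51.8% were. Over these 7 markers the median log2 ratio of knockout against wild type was 0.61 under mock and 0.62 with IL-10. Their summed signal was 3716 units with IL-10 and 2877.5 under mock in the knockout, against 2471.5 with IL-10 and 1742 under mock in wild type. Of 8 kept mesothelial and fibroblast markers 7 were lower in the knockout by 0.48 or more in log2 under both treatments, and Msln was at 31 units in both genotypes with IL-10 and at 41 in the knockout against 41.5 in wild type under mock. Over the 8 the median log2 ratio was -0.63 under mock and -0.62 with IL-10. Summed over all 9 listed markers of this list, including the one not kept, the signal was 19900.5 and 20010 units in the knockout with and without IL-10. In wild type it was 31872 and 33241.5. Of 6 mast cell markers 5 were listed, and their summed signal was 525 units with IL-10 and 456.5 under mock in the knockout, against 337.5 with IL-10 and 316 under mock in wild type. Of 7 resident peritoneal macrophage markers 6 were listed, with 3 higher in the knockout under each treatment. Under mock Vsig4 (-0.90) and Gata6 (-0.74) were lowest and Cxcl13 (0.88) highest. Of 7 neutrophil markers 4 were listed and 3 kept. The kept 3 had a median of 0.06 under mock and 0.20 with IL-10, Retnlg being highest (1.28 and 1.48). None of the 7 NK cell markers was listed, and 3 of 8 T cell markers (Cd3e and Cd4 not among them), 3 of 8 dendritic cell markers and 4 of 6 B cell markers were. The part of these cells in the results below was not tested, and in bulk RNA fewer cells of a type cannot be told apart from less RNA per cell.

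TAP is a pair of subunits, encoded by Tap1 and Tap2, that pumps peptides across the membrane of the endoplasmic reticulum. Tap1 was listed at 1874 units with IL-10 and 1257.5 under mock in the knockout, against 1051 with IL-10 and 946.5 under mock in wild type. The knockout with IL-10 stood furthest apart, and the difference that IL-10 made was 616.5 units in the knockout and 104.5 in wild type. On the log2 scale the IL-10 ratio of Tap1 was 0.57 in the knockout and 0.15 in wild type, and the knockout was higher than wild type by 0.82 with IL-10 and by 0.40 under mock. Of all kept genes 0.833% had as high a genotype ratio with IL-10, and 1.74% had as large a difference between the genotypes' IL-10 ratios as the 0.42 of Tap1.

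Tap2, its partner, was listed at 1368 units with IL-10 and 1107.5 under mock in the knockout, and at 1100 with IL-10 and 1092 under mock in wild type. The knockout with IL-10 was above the other 3 columns, which hardly differed among themselves. The log2 ratio with IL-10 was 0.30 in the knockout and 0.01 in wild type, a difference of 0.29 that 4.68% of kept genes reached. Under mock the genotypes differed by 0.02. Tapbp encodes tapasin, which bridges TAP to the empty class I molecule and edits the peptides it binds. Its signal was 9329.5 units with IL-10 and 9037 under mock in the knockout, against 8514 with IL-10 and 8458 under mock in wild type. The log2 ratios of Tapbp were 0.05 and 0.01 for IL-10 in knockout and wild type, and 0.13 and 0.10 for knockout against wild type with IL-10 and under mock.

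**Figure D1:**
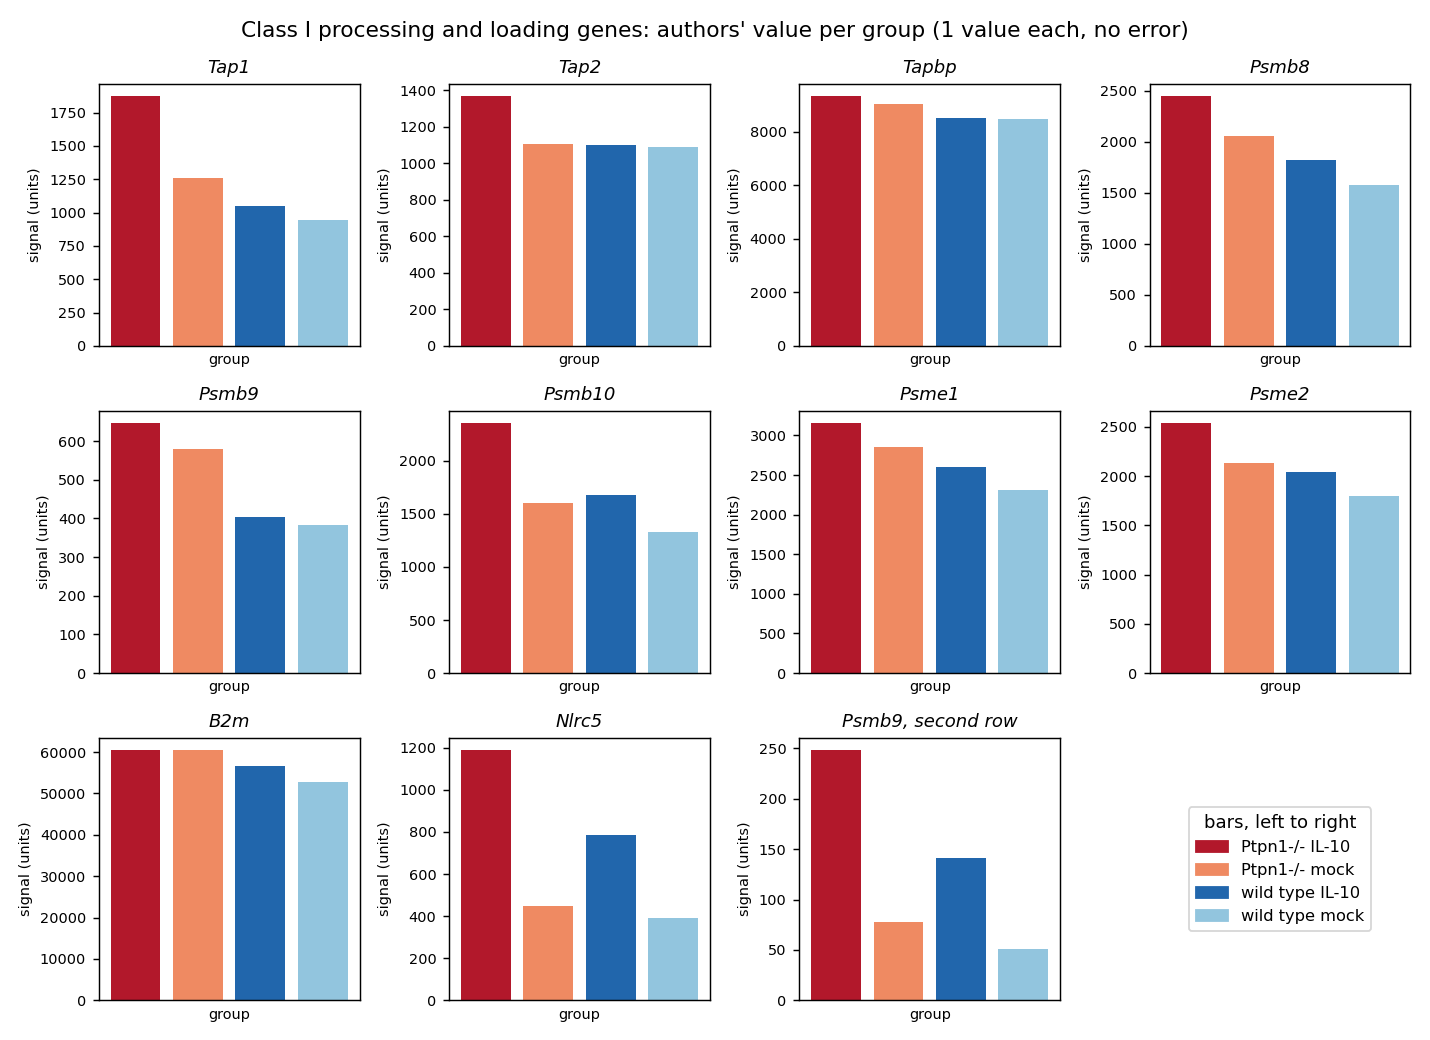
Bars give the authors' signal in units for each gene, 1 value per group and hence without error bars, in the order Ptpn1-/- with IL-10, Ptpn1-/- mock, wild type with IL-10 and wild type mock. The vertical axis of each panel starts at 0 and has its own scale. Tap1 reaches 1874 units in the knockout with IL-10 against 946.5 to 1257.5 in the other columns, whereas B2m lies between 52687 and 60393 in all 4.

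Psmb8, Psmb9 and Psmb10 encode the inducible catalytic subunits that replace Psmb5, Psmb6 and Psmb7 when an immunoproteasome is built. Psmb8 (LMP7) was listed at 2445 units with IL-10 and 2051 under mock in the knockout, against 1816 with IL-10 and 1571 under mock in wild type. Both knockout columns exceeded both wild-type columns. The genotype log2 ratio of Psmb8 was 0.42 with IL-10 and 0.38 under mock, and the IL-10 ratio was 0.25 in the knockout and 0.21 in wild type.

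Psmb9 (LMP2), on the row of higher signal (ENSMUSG00000024337), was listed at 646 units with IL-10 and 580.5 under mock in the knockout, against 404 with IL-10 and 383 under mock in wild type. The gap between genotypes was wider than that between treatments. Its genotype log2 ratio was 0.64 with IL-10 and 0.57 under mock, and its IL-10 ratio was 0.15 in the knockout and 0.07 in wild type. Of the 10 genes it had the largest mock difference between genotypes, which 1.51% of kept genes reached.

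The second Psmb9 row (ENSMUSG00000092299) had another pattern. It spans 34318981 to 34320676 on chromosome 17, beyond the end of the main row (34320975 to 34324283) on the minus strand, and which transcript it counts is not given in the sources used here. Its signal was 248 units with IL-10 and 77.5 under mock in the knockout, against 141.5 with IL-10 and 50.5 under mock in wild type. Here the treatments were further apart than the genotypes. The IL-10 log2 ratio was 1.40 in the knockout and 1.12 in wild type, values that 0.474% and 0.395% of kept genes reached, and the genotype ratio was 0.71 with IL-10 and 0.43 under mock. With both rows summed the IL-10 ratio of Psmb9 was 0.43 in the knockout and 0.31 in wild type.

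Psmb10 (MECL-1) was listed at 2352 units with IL-10 and 1604 under mock in the knockout, against 1680.5 with IL-10 and 1328.5 under mock in wild type. It differed by treatment in both genotypes, its IL-10 log2 ratio being 0.54 in the knockout against 0.33 in wild type. The genotype ratio was 0.48 with IL-10 and 0.27 under mock. Of kept genes 2.64% had as high an IL-10 ratio in the knockout and 4.34% in wild type.

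The constitutive counterparts differed less between genotypes given IL-10. Psmb5 was listed at 2019 units with IL-10 and 2344.5 under mock in the knockout, against 2002.5 with IL-10 and 2087 under mock in wild type. In the knockout with IL-10 against wild type with IL-10 the log2 ratios were 0.01 for Psmb5, 0.14 for Psmb6 and 0.06 for Psmb7. Under mock those ratios were 0.17, 0.21 and 0.32. Subtracting the counterpart's log2 ratio from that of the inducible subunit gave, for knockout against wild type with IL-10, 0.41 for Psmb8 over Psmb5, 0.50 for Psmb9 over Psmb6 and 0.42 for Psmb10 over Psmb7. Under mock the same subtraction gave 0.21, 0.36 and -0.05, so that Psmb10 and Psmb7 had like ratios between untreated genotypes.

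Psme1 and Psme2 encode the alpha and beta subunits of PA28, a cap that opens the proteasome's core. Psme1 was listed at 3153 units with IL-10 and 2856 under mock in the knockout, against 2602.5 with IL-10 and 2309.5 under mock in wild type. Psme2 was listed at 2537.5 units with IL-10 and 2135 under mock in the knockout, against 2040.5 with IL-10 and 1801.5 under mock in wild type. Both genes had the same order of columns, and each had its nearest profile among the 10 genes in the other. The genotype log2 ratio was 0.27 for Psme1 and 0.31 for Psme2 with IL-10, and 0.30 and 0.24 under mock. Their IL-10 ratios lay between 0.14 and 0.25 in both genotypes. Knockout minus wild type, the IL-10 ratio differed by -0.03 for Psme1 and 0.07 for Psme2.

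B2m encodes beta-2 microglobulin, the light chain of every class I molecule. It was listed at 60393 units both with IL-10 and under mock in the knockout, against 56540 with IL-10 and 52687 under mock in wild type. The equal values in the knockout gave an IL-10 log2 ratio of 0.00, against 0.10 in wild type. The genotype ratio was 0.10 with IL-10 and 0.20 under mock. Only 34 to 43 rows of a column exceeded B2m, and the steps between neighbouring values there were uneven. In the knockout the next higher value was 60431 units in both columns, and the next lower was 58965 with IL-10 and 60090.5 under mock. In the wild-type IL-10 column 3 rows, B2m included, held the same value. The next higher value there was 56629 units but the next lower was 52968. A small shift down in rank could therefore take B2m close to its wild-type mock value.

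Nlrc5 encodes a NOD-like receptor protein that acts in the nucleus as a transactivator of class I genes, Tap1, Psmb9 and B2m among its known targets. It was listed at 1187.5 units with IL-10 and 446 under mock in the knockout, against 784 with IL-10 and 389 under mock in wild type. Both IL-10 columns exceeded both mock columns. The IL-10 log2 ratio of Nlrc5 was 1.36 in the knockout and 0.96 in wild type, values that 0.518% and 0.544% of kept genes reached. Without the added units the signal ratio of Nlrc5 was 2.66 in the knockout and 2.02 in wild type, so its place at the 2-fold limit in wild type turns on that addition. The knockout was higher than wild type by 0.58 with IL-10, and by 0.19 under mock. The IL-10 ratio of Nlrc5 was larger by 0.40 in the knockout than in wild type, and 2.02% of kept genes had as large a gap.

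**Figure D2:**
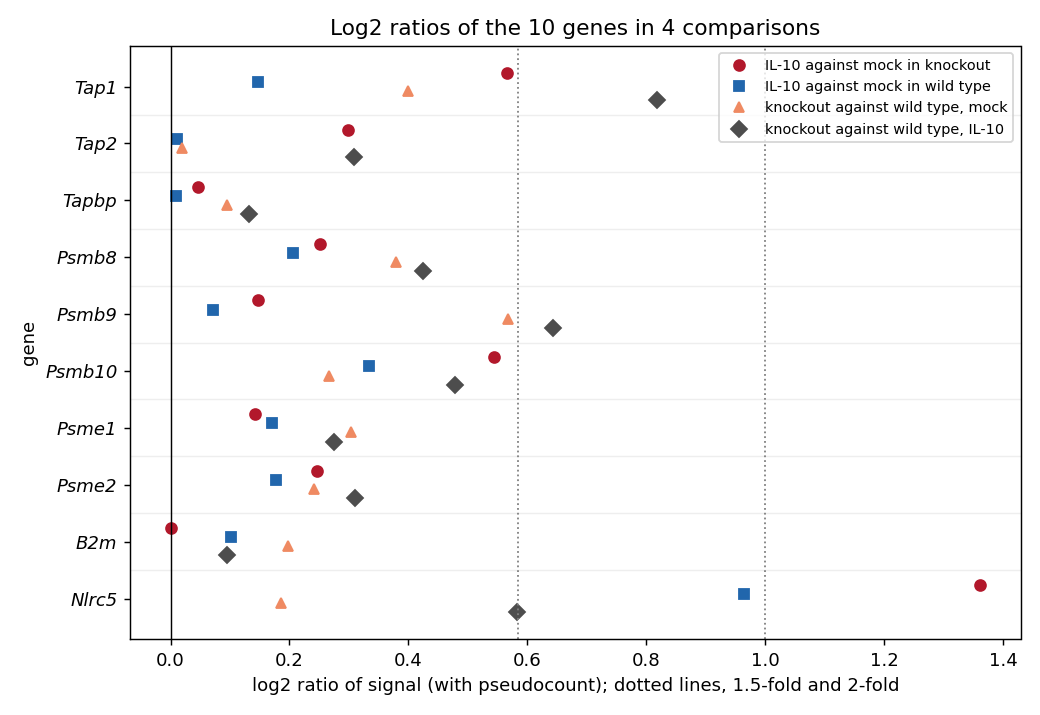
Points give the log2 ratio of signal (horizontal axis) of each gene (vertical axis) in 4 comparisons, with dotted lines at 1.5-fold and 2-fold. Of the 10 genes, Nlrc5 is highest in both IL-10 comparisons (1.36 in the knockout and 0.96 in wild type), and Tap1 has the highest genotype ratio with IL-10 (0.82).

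The comparison of IL-10 with mock in the knockout asks how macrophages without Ptpn1 respond to IL-10. Nlrc5 was the 1 gene of 10 at least 2-fold higher, where 0.877% of all kept genes were, and also the 1 of 10 at least 1.5-fold higher, where 2.32% were. The second Psmb9 row, left out of these counts, was past 2-fold too (1.40). Tap1 (0.57) and Psmb10 (0.54) lay just under the 1.5-fold limit of 0.58 in log2. The median over the 10 genes was 0.25, against -0.01 over all kept genes. In wild type none of the 10 was at least 2-fold higher (0.465% of kept genes), and Nlrc5 was the 1 gene at least 1.5-fold higher (1.54% of kept genes). The second Psmb9 row was past 2-fold there as well (1.12). The wild-type median was 0.16, against 0.00 over all kept genes, and 0.10 with the trend over transcript length subtracted (Spearman's rho of the ratio with length -0.36, over 11361 genes). No gene of the set was 2-fold lower in the knockout (0.0175% of kept genes) or in wild type (0.0175%), and none was 1.5-fold lower (0.807% and 0.412%). All 10 log2 ratios were above 0 in wild type and 9 in the knockout (the exception being B2m), where 49.6% and 45.2% of kept genes were. With the trend over transcript length subtracted, 8 were above 0 in wild type, Tap2 and Tapbp falling below. For Tap2 this is uncertain, since the length used (3442 bases) exceeds the 1515 bases its row spans.

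The comparison of genotypes under mock treatment asks how untreated cells differ. No gene of the set reached 1.5-fold, where 1.43% of kept genes were that much higher, and Psmb9 (0.57) came nearest. None was 2-fold higher (0.325%), 1.5-fold lower (1.4%) or 2-fold lower (0.105%). All 10 were above 0, as were 53.5% of kept genes, with a median of 0.25 against 0.02 over all kept genes. Across 11361 kept genes with a known transcript length, longer transcripts had lower values of this log2 ratio (a rank correlation of -0.53, Spearman's rho, across genes that are not independent), and the longest transcripts of the 10 genes run from 860 bases for B2m to 7578 for Nlrc5. With that trend subtracted the median was 0.14, B2m and Tap2 were at or below 0, Psme2 stood at 0.05 and Psmb10 at 0.08, whereas Tap1 stood at 0.41, Nlrc5 at 0.37 and Psmb9 at 0.50. Nlrc5 was given a length of 7578 bases and Tap2 of 3442, longer than the 2202 and 1515 bases their rows span. The values of Nlrc5 and Tap2 with this trend subtracted are therefore uncertain, here and in the other comparisons.

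With IL-10, the genotypes stood further apart in the median and in 8 of the 10 genes, but closer in B2m and Psme1. Tap1 and Psmb9 exceeded wild type by at least 1.5-fold, 2 of 10 genes where 1.8% of kept genes were, and Nlrc5 lay just under the limit, passing it with a pseudocount of 0.25 ppm (0.59) or with the length trend subtracted (0.69). The length used for Nlrc5 (7578 bases) exceeds the 2202 bases its row spans, so the last value is uncertain. The second Psmb9 row, not counted, stood at 0.71. None was 2-fold higher (0.596% of kept genes), 1.5-fold lower (0.991%) or 2-fold lower (0.0789%). The median was 0.37, against 0.01 over all kept genes, and all 10 were above 0, as were 51.8% of kept genes. With the trend over transcript length subtracted, 9 were above 0, B2m being the exception at -0.02. Both genotype comparisons and both IL-10 comparisons are made from the same 4 columns, so a high value in the knockout IL-10 column enters each comparison that uses it.

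**Figure D3:**
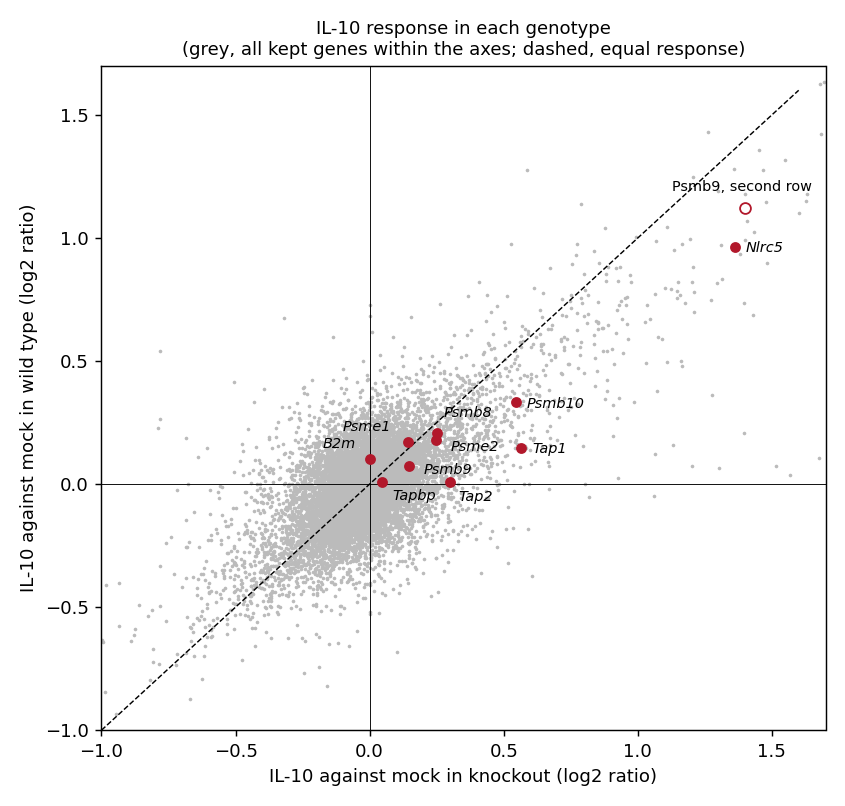
Each point is a kept gene, with its IL-10 log2 ratio in the knockout on the horizontal axis and in wild type on the vertical axis; red points are the 10 genes, the open point is the second Psmb9 row, and 38 kept genes lie outside the axes. Tap1, Tap2, Psmb10 and Nlrc5 lie below the dashed line of equal response (differences of 0.42, 0.29, 0.21 and 0.40), and the other 6 lie close to it.

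Subtracting the wild-type IL-10 log2 ratio from that of the knockout addresses whether the response itself differed. The median of the 10 genes was 0.07, against 0.00 over all kept genes, and 8 were above 0, where 48.7% of kept genes were. None reached 1.5-fold, where 0.5% of kept genes were that much higher and 0.263% that much lower, or 2-fold (0.0965% and 0.0351%). The spread within the set was wide: Tap1 (0.42), Nlrc5 (0.40), Tap2 (0.29) and Psmb10 (0.21) led, the values of Psmb9, Psme2, Psmb8 and Tapbp lay between 0.04 and 0.08, and Psme1 (-0.03) and B2m (-0.10) were below 0, Psme1 turning to 0.02 with the length trend subtracted. Among the adjacent rows on chromosome 17, Tap1 and Tap2 were near the top and Psmb8 near 0. Psmb9 was at 0.08 on its row of higher signal, 0.28 on its second row and 0.11 with both summed.

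Other parts of the pathway gave a measure for the set. Of the 16 other core (20S) subunits and assembly factors of the proteasome all were above 0 in knockout against wild type under mock, with a median of 0.26, the same size as the 0.25 of the 10 genes. The regulatory particle (19S), which unfolds the proteins to be cut, had a median of 0.20 with 19 of 21 above 0. Of all kept genes 53.5% were above 0 in that comparison. No gene of either list reached 1.5-fold, where 1.43% of kept genes were that much higher. The largest ratios were 0.49 for Psma2, a core alpha subunit, and 0.36 for Psmd8, a subunit of the regulatory particle. The 3 genes of the other activators and the inhibitor (Psme3, Psme4 and Psmf1) had ratios between -0.16 and 0.16 in every comparison. With IL-10 the genotype medians were 0.17 for the core list and 0.12 for the regulatory particle, against 0.37 for the 10 genes. In the knockout's response to IL-10 they were 0.05 and 0.07, against 0.25 for the 10 genes, and in the wild type's 0.18 and 0.12, against 0.16. In the difference between responses 4 of 16 core genes and 4 of 21 regulatory genes were above 0, where 48.7% of kept genes were. The medians were -0.11 and -0.07. The trend over transcript length was not subtracted from any of these list values. Subtracting it took the mock genotype median of the 10 genes to 0.14. Spearman's rho of the ratio with length was -0.53 for genotypes under mock, -0.40 with IL-10 and 0.25 for the difference between responses.

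Among the factors that trim peptides, Erap1, the aminopeptidase of the endoplasmic reticulum, was listed at 3616 units with IL-10 and 3045.5 under mock in the knockout, against 2805 with IL-10 and 2419 under mock in wild type. None of the 9 trimming genes reached 1.5-fold in any comparison, where at most 2.32% of kept genes were that much higher in any 1 comparison. The largest ratio was that of Lap3, a leucine aminopeptidase, with IL-10: 0.43 in the knockout and 0.11 in wild type. Of 8 loading partners, Tapbpl, which encodes the tapasin relative TAPBPR, was the 1 at least 1.5-fold higher with IL-10 in the knockout (2.32% of kept genes). Tapbpl was listed at 858 units with IL-10 and 511.5 under mock in the knockout, against 598 with IL-10 and 432 under mock in wild type. The general chaperones of that list did not share this: Calr stood at -0.24 and Canx at -0.09 in the knockout's IL-10 ratio. Only 1 of the 8 genes was above 0 there, where 45.2% of kept genes were.

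Of the class I heavy chain genes 13 were kept, with a genotype median of 0.39 under both treatments, whereas the IL-10 median was 0.06 in the knockout and 0.09 in wild type. H2-K1, a classical heavy chain, was listed at 25040 units with IL-10 and 22436 under mock in the knockout, against 18064 with IL-10 and 16560 under mock in wild type, and H2-D1 at 50734 and 46913 units in the knockout, against 41018 and 41018 in wild type. The equal wild-type values of H2-D1 lie on a scale that the columns share, and need not mean equal expression. H2-Q6 and H2-Q7 exceeded wild type by at least 2-fold in the knockout with IL-10 (1.11 and 1.20), where 0.596% of kept genes did. Under mock H2-Q6 did so too (1.36), where 0.325% of kept genes did. Reads of these near-identical genes can be split among copies, which makes their single values uncertain.

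Of the 18 regulators of class I transcription none reached 2-fold, where at most 0.877% of kept genes were that much higher in any 1 comparison. Irf1, the interferon regulatory factor that binds class I promoters, was listed at 2018.5 units with IL-10 and 1272.5 under mock in the knockout, against 1354.5 with IL-10 and 989 under mock in wild type. Stat2 (0.84) and Irf1 (0.65) were the 2 regulators at least 1.5-fold higher with IL-10 in the knockout, where 2.32% of kept genes were. Stat2 (0.65) and Irf9 (0.65) were also at least 1.5-fold higher in the knockout with IL-10 than in wild type with IL-10. Of kept genes 1.8% were. Rfx5, Rfxap and Rfxank, the DNA-binding partners through which NLRC5 acts, had IL-10 ratios of -0.05, 0.01 and 0.21 in the knockout. They are given for their role, and were named after their values were seen.

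**Figure D4:**
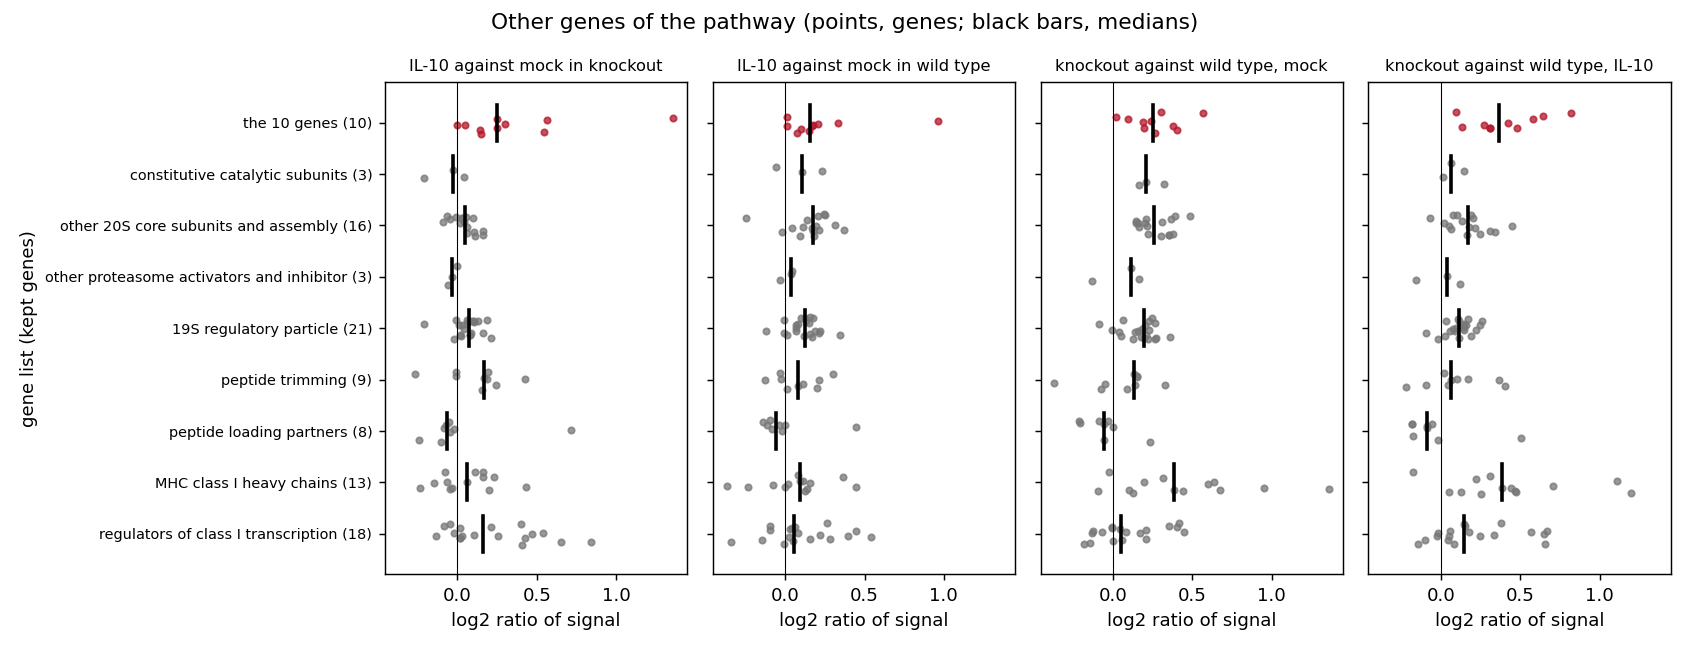
Each point is the log2 ratio of signal of a kept gene (horizontal axis, shared by all panels), by gene list (vertical axis, with the number of kept genes), in 4 comparisons; black bars are medians. Under mock the 10 genes (0.25) and the other core subunits (0.26) have like genotype medians, whereas with IL-10 they stand at 0.37 and 0.17. No trend over transcript length is subtracted.

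The genes whose 4 centred log2 values lay nearest to the median profile of the set, by Euclidean distance over the 4 groups among 9429 genes of at least 134 units on average, were Nudt9, Erap1, Ccdc58, 1810037I17Rik and Glod4, at distances of 0.03 to 0.04. Erap1 is the 1 of the 5 that was also on a pathway list. Within the set Psme2 (0.05), Psmb8 (0.08) and Psme1 (0.10) lay nearest to the median profile and Nlrc5 (0.94) furthest, with Tap1 at 0.36. The median profile therefore describes the PA28 genes and Psmb8 better than it describes Nlrc5 or Tap1.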

How the data were processed

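Per the submitters' processing notes, RSEM, Bowtie and mm9 were used; their roles, the annotation, normalization and filters are not stated in the labels. The authors deposited 1 normalized signal per gene for each of 4 groups of 2 samples. The data are named CPM, but each column sums to 26705598 and shares the highest value, 362618, so columns share 1 scale and depth per sample is unknown. Where nothing says that samples were separate mice, replicates may be technical. Log2 ratios used a pseudocount of 1 ppm (26.7 units), and rows with a mean of at least 1 ppm were kept (11400 of 11996). The planned limma-trend fit needs values per sample and was not run; limits of 2-fold and 1.5-fold stood in for it. Lists were read by name or Ensembl identifier, with the row of highest signal for a repeated name. Genes and lists were chosen with earlier results of these data known; all 10 genes are named, with Ptpn1, the genes of each pathway list past 2-fold or else with the largest differences, a few set genes (Psmb5, Psmb6, Psmb7, Irf1, H2-K1 and H2-D1) and the 5 nearest profiles. Canx, Cd68, Lyz2, Fcgr1, Msln, Vsig4, Gata6, Cxcl13, Retnlg and the chromosomal neighbours fall outside that rule and were named after their values were seen. An item under the rule is not reported here. The code was tested on simulated data. Transcript lengths are from GENCODE M21 and promoters from RefSeq on GRCm38.p6. Python 3.11.15, pandas 2.3.3 and numpy 2.4.6 were used.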

Additional observations from a re-analysis of the deposited data

How the results depend on the processing

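The 50 log2 ratios of the 10 genes were recomputed with a pseudocount of 0.25 or 4 ppm, with no filter or one at 5 ppm, after centring on the median gene, with the trend over mean signal subtracted and, as alternatives chosen after seeing the data, with the trend over transcript length subtracted or both Psmb9 rows summed. No ratio past 1.5-fold changed sign. A ratio was counted as moved at 0.1 or more: 2 moved with the pseudocount of 4 ppm, 2 with the Psmb9 rows summed and 11 with the length trend subtracted. That trend took the genotype median under mock to 0.14, the wild-type IL-10 median to 0.10 and Nlrc5 in wild type past 2-fold, which made 1 gene there. For Nlrc5 the subtraction used a length of 7578 bases, whereas its row spans 2202, so its place at either limit with that trend subtracted is uncertain. Counts at 1.5-fold became 2 for IL-10 in the knockout (trend over mean signal, Tap1 joining), 1 for the genotypes with IL-10 (pseudocount of 4 ppm, Psmb9 dropping out) or 3 (pseudocount of 0.25 ppm or length trend subtracted, Nlrc5 joining) and 1 for the genotypes under mock (pseudocount of 0.25 ppm, Psmb9). The cause was not tested. No paired analysis was possible because the table has 1 column per group, and the replicate block and leave-one-out fits were not run for the same reason. Depth per sample is unknown.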

Other observations

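Neighbours of the gene clusters gave values of their own. Next to the chromosome 17 cluster lie class II genes. H2-Ab1, a class II beta chain, was listed at 4647 units with IL-10 and 4434 under mock in the knockout, against 3031 with IL-10 and 2699 under mock in wild type. Its genotype log2 ratio was 0.61 with IL-10 and 0.71 under mock, and its IL-10 ratios were 0.07 in the knockout and 0.17 in wild type. H2-DMa and H2-DMb1, on the other side, had genotype ratios of 0.26 and 0.31 with IL-10 and 0.48 and 0.45 under mock. In these class II neighbours the genotype ratio was larger under mock, whereas in Tap1, Tap2, Psmb8 and Psmb9 it was larger with IL-10. The low class II rows H2-DMb2 (29.5 to 49 units) and H2-Ob (12 to 19.5 units, not kept) also had larger ratios with IL-10. Their genotype ratios were 0.25 and 0.11 with IL-10, and 0.12 and 0.04 under mock. On chromosome 14 Fam158a lies between Psme1 and Psme2, with a genotype ratio of 0.06 with IL-10, and Rnf31 and Irf9 follow, with 0.10 and 0.65. Dhrs4, Pck2 and Dcaf11, on the Psme1 side, stood at 0.10, -0.03 and 0.07 with IL-10, and Ipo4, beyond Irf9, at -0.08. These neighbours were found by position and named after their values were seen, and no difference between them was tested.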
